A study of Homo sapiens with 9 samples.

Results

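The 30 genes described here make cholesterol from acetyl-CoA, sense it, or move it and its building blocks through the cell. They were chosen by name, from a list of 32 symbols of which 2 are newer names of genes that the array calls SC4MOL (now MSMO1) and SC5DL (now SC5D). Every non-control probe carrying one of these names was taken, which gave 37 of the 42405 probes on the array and 37 of the 29134 probes that could be tested (30 of 34623 gene names on the array). The cells were NT2, a line from a human embryonal carcinoma whose cells differentiate towards neurons when given retinoic acid. All groups received 10 μM retinoic acid and 10% foetal bovine serum for 4 days (96 h), with fresh medium at the start of day 3. The control cultures received nothing further, the paraoxon cultures 1 μM paraoxon, and the mipafox cultures 5 μM mipafox. Paraoxon and mipafox are both organophosphorus inhibitors of serine esterases. Mipafox also inhibits neuropathy target esterase, which paraoxon inhibits poorly, and the molar doses of the compounds differ.

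Each treatment had 3 one-colour Agilent arrays, lettered A to C. They are technical replicates in the paper's words and biological ones in the deposited design text, so the spread between arrays may be technical and the p-values measure only that spread. The controls and mipafox A were on slide 1; paraoxon A to C and the other two mipafox arrays were on slide 2. Paraoxon and control shared no slide, so for them slide and treatment cannot be told apart. Values with slide as a block are given beside the genes described one by one where the block moves them by more than their SE, and for paraoxon these rest on the mipafox arrays, the only treatment on both slides. All 9 embryonal carcinoma markers and all 6 retinoic acid response markers on the array were well above background on every array, as were 3 of 4 neural progenitor and 3 of 4 neuron markers, while neither of the 2 astrocyte markers was on all 9 arrays. Of markers of cells not expected here, 1 of 3 hepatocyte, 2 of 4 fibroblast and 3 of 3 leukocyte genes were well above background on all 9 arrays. The log2 of the summed signals of the embryonal carcinoma list ran from 7.61 to 7.64 in control, 7.50 to 7.65 with paraoxon and 7.32 to 7.86 with mipafox. The brightest gene, PODXL (mean log2 signal 6.50), weighs most in this sum. The same sum for the neural progenitor list was lower on every treated array than on any control. It ran from 6.07 to 6.21 in control, 5.82 to 6.05 with paraoxon and 5.88 to 5.98 with mipafox. VIM, the brightest gene of that list, differed by -0.22 for paraoxon and -0.36 for mipafox (adjusted p = 0.563 and 0.651 in limma). The sums of the retinoic acid response and neuron lists overlapped between control and each compound.

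Cholesterol synthesis starts with the joining of acetyl-CoA units, passes through mevalonate to the isoprenoid farnesyl diphosphate, and from there through squalene and lanosterol to cholesterol. When membranes of the endoplasmic reticulum hold little sterol, SCAP carries the membrane-bound factors SREBP-1 and SREBP-2 to the Golgi, where proteases release their DNA-binding parts, and these raise the transcription of most genes of the pathway. INSIG proteins hold SCAP back when sterol is plentiful, and INSIG1 is itself an SREBP target, so that its RNA is a common readout of SREBP activity. Serum in the medium carries cholesterol, and growing neurons need cholesterol for their membranes and neurites.

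The promoters of these genes are shown first because SREBPs are known to control most genes of the pathway, although the list was chosen by name. SREBPs bind sterol regulatory elements, usually close to a CCAAT box bound by the factor NF-Y. RefSeq windows on GRCh38.p14, from 250 bases before to 50 bases after each transcription start, were found for 26 of the 30 genes (not for ACAT2, FDFT1, SQLE and SCARB1). The word CCAAT, searched on both strands, was in at least 1 window of 19 of the 26 genes (73.1%) and in 39.7% of all 27305 genes with a window. Counted by window, it was in 23 of 38 (60.5%) for these genes and in 34.6% of all 35116. The word TCACNCCAC, the core of the classical sterol regulatory element, was in 1 of the 26 (3.85%) and in 1.39% of all genes. The E-box CACGTG, which SREBP-1 can also bind, was in 4 of the 26 (INSIG1, LSS, SC5D and SCAP, 15.4%) and in 8.78% of all. In these genes no match of one word overlapped a match of another, and a match is a description of the letters only. Below are the sterol-element match of SREBF2 and CCAAT matches of the genes whose values are followed further down, each with 20 bases on either side, the matched word in capitals (ATTGG is CCAAT read on the other strand) and written 5′ to 3′ along the gene.

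SREBF2, chr22:41832952-41833000, plus strand: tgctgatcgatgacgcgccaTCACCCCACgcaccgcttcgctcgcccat

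INSIG1, chr7:155297688-155297732, plus strand: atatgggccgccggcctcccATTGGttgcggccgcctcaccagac

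HMGCS1, chr5:43313488-43313532, minus strand: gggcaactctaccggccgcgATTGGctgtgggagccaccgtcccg

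IDI1, chr10:1048949-1048993, minus strand: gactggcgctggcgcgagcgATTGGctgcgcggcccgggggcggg

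MSMO1, chr4:165327573-165327617, plus strand: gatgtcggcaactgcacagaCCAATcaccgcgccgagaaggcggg

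STARD4, chr5:111512641-111512685, minus strand: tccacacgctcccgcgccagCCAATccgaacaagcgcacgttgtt

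No gene of the pathway was called with either compound. A call needed an adjusted p under 0.05 in limma, with Benjamini-Hochberg adjustment over all 29134 probes, and a log2 fold change beyond 1. By that rule 0 of the 30 genes were called for paraoxon against control, where 0.0% of all probes were, 0 for mipafox against control (0.0% of all probes) and 0 for paraoxon against mipafox (0.0% of all probes). Values below are log2 of the processed signal minus the array's 75th percentile, a gene with several probes is read from its brightest one, and a fold change is the difference of treatment means on that log2 scale. Of the 37 probes, 36 were well above background on all 9 arrays and none was saturated. The exception was the dimmer LPIN1 probe.

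At an unadjusted p under 0.05 the count was also small. For paraoxon, 0 of 30 genes were higher, where 7.31% of all probes were, and 1 was lower (STARD4), where 6.02% of all probes were. For mipafox, 0 were higher (2.96% of all probes) and 2 were lower (INSIG1 and STARD4; 4.0% of all probes). In the fit of paraoxon against mipafox, 1 of 30 (INSIG1) was higher with paraoxon (2.87% of all probes). The shares of the 30 genes that were lower, 3.33% with paraoxon and 6.67% with mipafox, lay near these backgrounds, as did the 3.33% between the compounds. By groups that did not overlap, ACACA alone was higher with paraoxon (12.4% of all probes) and ACLY, EBP and STARD4 were lower (11.1% of all probes). With mipafox, SCAP was higher (5.34% of all probes) and STARD4 was lower (6.46% of all probes) on all 3 arrays.

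The median log2 fold change of the 30 genes was 0.02 for paraoxon, beside 0.01 over all probes tested, with 17 genes above 0 and 13 below and a range from -0.43 (MVD) to 0.15 (CYP51A1). For mipafox it was -0.06, beside 0.001 over all probes, with 12 above 0 and 18 below and a range from -0.40 (INSIG1) to 0.26 (LSS). The 95% interval of the fold change lay within 1 on either side of 0 for 29 of 30 genes with paraoxon and 28 of 30 with mipafox, compared with 77.5% and 82.2% of all probes. The exceptions were MVD for both compounds and HMGCS1 for mipafox. Within a narrower limit of 1.5-fold the interval held 21 genes (70.0%) for paraoxon and 20 (66.7%) for mipafox, compared with 39.2% and 43.8% of all probes. For the other genes the interval reached 1.5-fold or beyond. The genes were brighter than most probes: 23 of the 30 lay above the array's 75th percentile on all 9 arrays. Of all probes tested, 29.1% lay above it on average, and these shares were not matched for brightness. With slide as a block the sign of the fold change turned for 14 of the 30 genes with paraoxon and 11 with mipafox (10730 and 9861 of all 29134 probes), and the smallest adjusted p of the 30 genes was 0.613 for paraoxon, 0.850 for mipafox and 0.843 between the compounds.

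**Figure D1:**
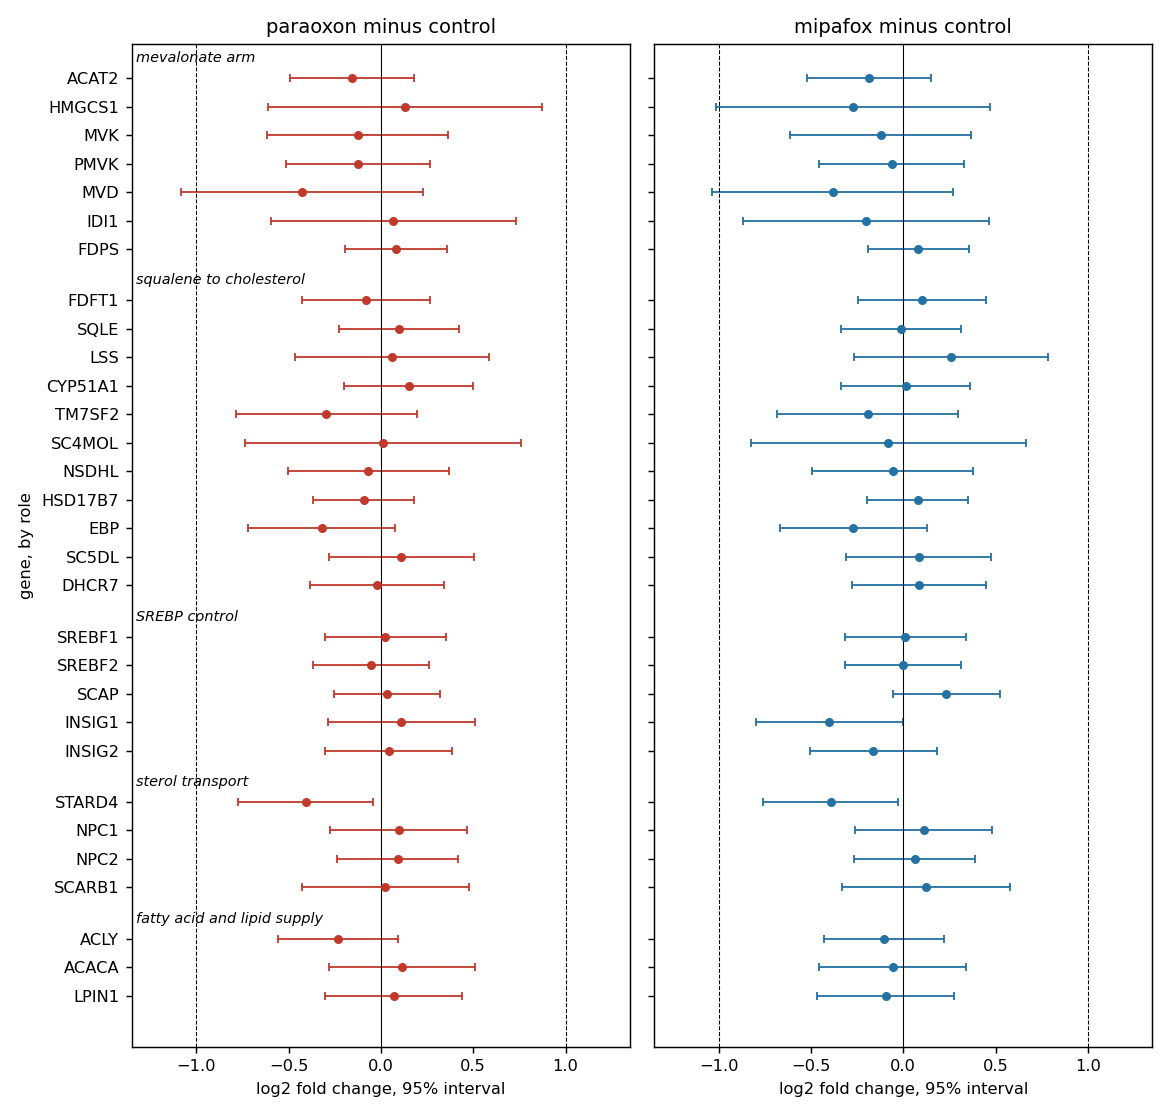
Log2 fold change of each of the 30 genes against control, for paraoxon (left) and mipafox (right), ordered by role; points are limma estimates from 3 arrays a treatment, bars are 95% intervals and dashed lines mark 1 on either side of 0. STARD4 lies below 0 in both panels at -0.41 and -0.39, INSIG1 lies at 0.11 and -0.40, and the widest intervals are those of SC4MOL, HMGCS1, IDI1 and MVD.

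The mevalonate arm (7 genes: ACAT2, HMGCS1, MVK, PMVK, MVD, IDI1 and FDPS) had 0 genes at an unadjusted p under 0.05 with either compound. Its median log2 fold change was -0.13 for paraoxon and -0.19 for mipafox, with 3 and 1 of the 7 above 0. HMGCS1, which makes the direct precursor of the mevalonate-forming step, gave 1.39, 1.28 and 1.65 in control, 1.30, 2.10 and 1.31 with paraoxon, and 0.63, 1.00 and 1.88 with mipafox, in the order A, B and C here and below. The mipafox arrays spread from below every control to above every control, and paraoxon B alone stood above the controls. The log2 fold change was 0.13 (SE 0.33, adjusted p = 0.921 in limma) for paraoxon and -0.27 (SE 0.33, adjusted p = 0.942) for mipafox. With slide as a block it was -0.68 and -0.81, so that the sign for paraoxon turned.

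IDI1, which converts isopentenyl diphosphate to its reactive isomer, also spread widely within treatments. Its values were 1.70, 1.99 and 2.30 in control, 1.97, 2.58 and 1.64 with paraoxon, and 1.38, 1.75 and 2.27 with mipafox, in the same order. Paraoxon B lay above every control, and paraoxon C and mipafox A below every control. The log2 fold change was 0.07 (SE 0.30, adjusted p = 0.959 in limma) for paraoxon and -0.20 (SE 0.30, adjusted p = 0.962) for mipafox. With slide as a block the values were -0.56 and -0.62. MVD, which makes isopentenyl diphosphate, had the lowest fold change of the list for paraoxon at -0.43 (SE 0.29, adjusted p = 0.592), which turned to 0.09 with slide as a block. Its values were 0.21, -0.23 and -0.04 in control and -0.22, -0.01 and -1.12 with paraoxon, and paraoxon C alone lay below every control array. FDPS, the farnesyl diphosphate synthase, was among the least variable probes of the array, with a within-treatment SD of 0.07, and its fold changes were 0.08 and 0.08 (SE 0.12 for both). For FDPS the 95% intervals ran from -0.19 to 0.36 with both compounds.

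The steps from squalene to cholesterol (11 genes: FDFT1, SQLE, LSS, CYP51A1, TM7SF2, SC4MOL, NSDHL, HSD17B7, EBP, SC5DL and DHCR7) had a median of -0.02 for paraoxon and 0.01 for mipafox, and 0 of the 11 reached an unadjusted p under 0.05. SQLE, the squalene epoxidase and a rate-limiting enzyme of this arm, gave 2.90, 2.94 and 3.08 in control, 2.91, 3.32 and 2.98 with paraoxon and 2.98, 2.95 and 2.96 with mipafox. Only paraoxon B stood above the control range. The log2 fold change of SQLE was 0.10 (SE 0.14, adjusted p = 0.849 in limma) for paraoxon and -0.01 (SE 0.14, adjusted p = 0.997) for mipafox. The 95% interval of SQLE ran from -0.23 to 0.42 for paraoxon and from -0.34 to 0.31 for mipafox. With the authors' processed values its fold change was 0.31 for paraoxon (unadjusted p = 0.035 in limma) and 0.13 for mipafox. EBP, the sterol isomerase, lay at 4.38, 4.53 and 4.42 in control and at 4.20, 4.11 and 4.06 with paraoxon, groups that did not overlap. With mipafox it lay at 4.51, 4.18 and 3.83, of which mipafox A, on the control slide, was within the control range. The log2 fold change of EBP was -0.32 (SE 0.18, adjusted p = 0.487 in limma) for paraoxon and, with slide as a block, 0.19, so its direction turned. For mipafox it was -0.27 and, with the block, 0.07.

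SC4MOL, the sterol C4-methyl oxidase, was the most variable of the brightest probes, with a within-treatment SD of 0.473, above 87.5% of all probes tested. Its values were -0.77, -0.55 and -0.38 in control, -0.48, -0.10 and -1.10 with paraoxon and -1.23, -0.72 and 0.00 with mipafox. Both treated groups spread to either side of the controls. The fold changes of 0.01 and -0.08 had an SE of 0.33, and with slide as a block they were -0.86 and -0.66. HSD17B7, a ketoreductase of the pathway, is measured by 3 probes and has a near-identical pseudogene copy that they may also read. Its brightest probe differed by -0.09 for paraoxon and 0.08 for mipafox (SE 0.12), while its dimmest probe differed by -0.48 (SE 0.20, unadjusted p = 0.038, adjusted p = 0.336) and -0.43, and with slide as a block by -0.27 and -0.29. That probe was lower than every control on all 3 mipafox arrays.

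**Figure D2:**
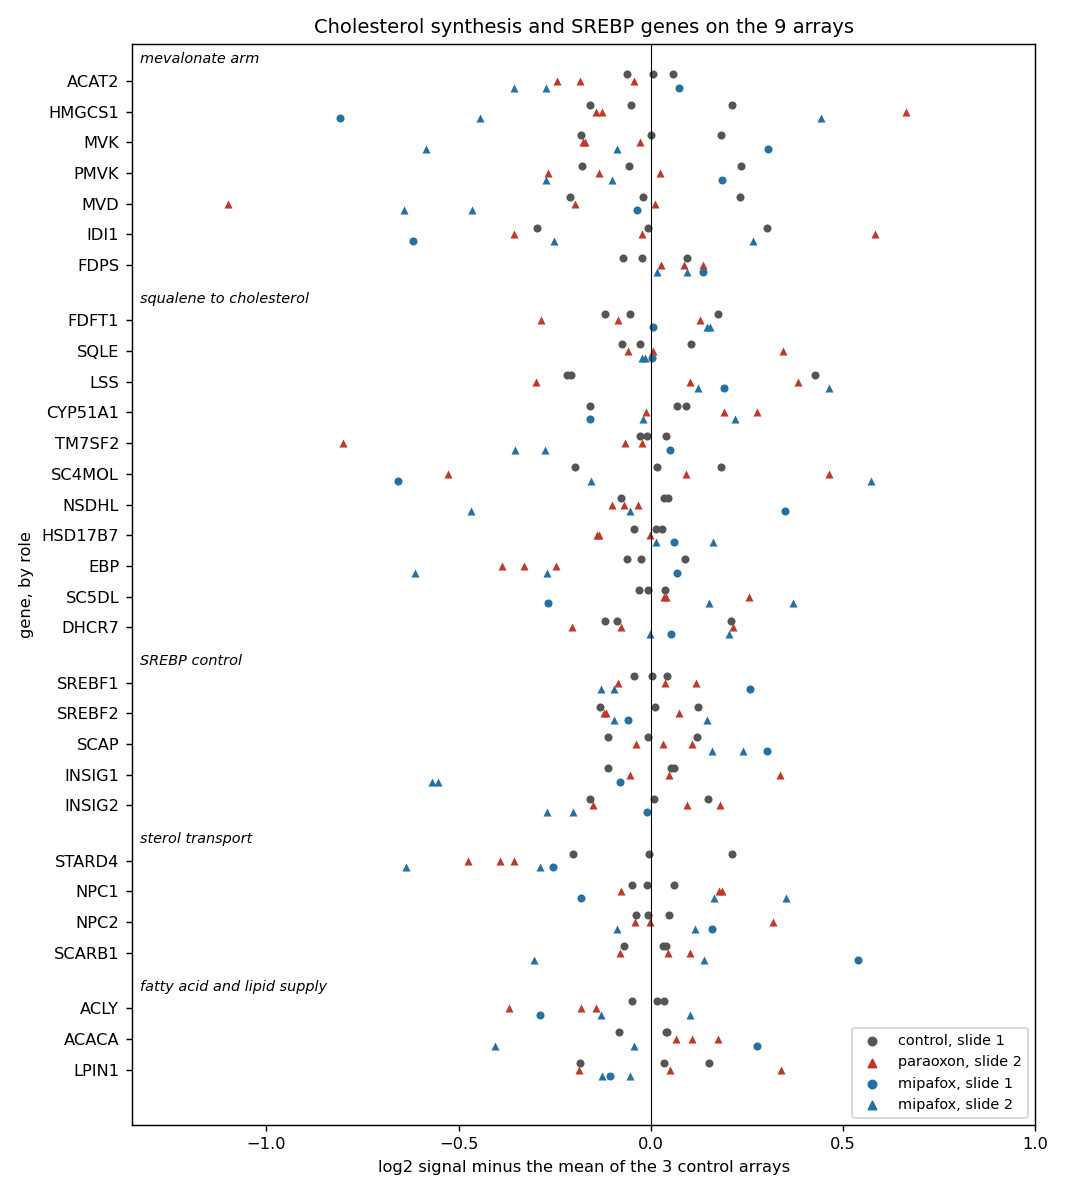
Log2 signal of the 30 genes on each of the 9 arrays minus the mean of the 3 control arrays, ordered by role; colour gives the treatment, circles are slide 1 and triangles slide 2. Most genes keep all 9 arrays within 0.5 of the control mean, whereas HMGCS1, IDI1 and SC4MOL spread widely within each treated group.

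The genes of SREBP control itself (5 genes) had a median of 0.03 for paraoxon and -0.0034 for mipafox. SREBF2, which encodes the main sterol-responsive factor SREBP-2, gave 1.58, 1.33 and 1.47 in control, 1.34, 1.53 and 1.34 with paraoxon and 1.40, 1.36 and 1.61 with mipafox. The 3 groups overlapped throughout. The log2 fold changes of SREBF2 were -0.06 for paraoxon and -0.0034 for mipafox (SE 0.14, adjusted p = 0.921 and 0.998 in limma). The intervals ran from -0.37 to 0.26 and from -0.32 to 0.31. SREBF1, which encodes SREBP-1, gave 3.63, 3.67 and 3.59 in control, 3.55, 3.75 and 3.67 with paraoxon and 3.89, 3.53 and 3.50 with mipafox, with fold changes of 0.02 and 0.01 (SE 0.15) and, with slide as a block, of 0.39 and 0.26. Its second, dimmer probe differed by 0.13 and 0.17 (SE 0.33), and with slide as a block by 0.77 and 0.60. SCAP was above all 3 controls on all 3 mipafox arrays, at 2.25, 2.10 and 2.19 against 2.07, 1.83 and 1.94, a log2 fold change of 0.23 (SE 0.13, adjusted p = 0.809 in limma).

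INSIG1 was lower on mipafox B and C than on any other array. Its values were 2.37, 2.55 and 2.54 in control, 2.54, 2.82 and 2.43 with paraoxon, and 2.41, 1.92 and 1.93 with mipafox. Mipafox A was within the control range, as were paraoxon A and C, and paraoxon B lay above that range. The log2 fold change was -0.40 for mipafox (SE 0.18, unadjusted p = 0.049, adjusted p = 0.715 in limma) and 0.11 for paraoxon (SE 0.18, adjusted p = 0.860). In the direct fit INSIG1 was 0.51 higher with paraoxon than with mipafox (95% interval 0.11 to 0.91, unadjusted p = 0.018, adjusted p = 0.998), at doses that differ. The slide moved with this result. On slide 1, mipafox A differed from the control mean by -0.08, and on slide 2 the mean of the paraoxon arrays was 0.67 above that of mipafox B and C. With slide as a block the fold change was -0.08 for mipafox, 0.59 for paraoxon (unadjusted p = 0.049 in limma) and 0.67 for paraoxon against mipafox (unadjusted p = 0.003). Of the 9 fits without 1 array, 2 kept the unadjusted p for mipafox under 0.05 (those without paraoxon B and without mipafox A). The fit without paraoxon B leaves the fold change for mipafox as it was. With the authors' processed values the fold change of INSIG1 was 0.28 for paraoxon (unadjusted p = 0.044 in limma) and -0.27 for mipafox (unadjusted p = 0.052). INSIG2, its less sterol-responsive relative, differed by 0.04 and -0.16 (SE 0.15), and with slide as a block by 0.27 and -0.01. Its dimmer probe differed by 0.34 and 0.19 (SE 0.19), and with slide as a block by 0.01 and -0.03. The INSIG2 probes thus disagree in sign for mipafox without the block.

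STARD4, which carries cholesterol between membranes and is an SREBP target, was lower than all 3 controls on all 6 treated arrays. Its values were -2.28, -1.86 and -2.08 in control, -2.43, -2.55 and -2.47 with paraoxon and -2.33, -2.36 and -2.71 with mipafox. The gap was narrow, between control A at -2.28 and mipafox A at -2.33. The log2 fold change was -0.41 for paraoxon (SE 0.16, 1.33-fold, unadjusted p = 0.032, adjusted p = 0.316 in limma) and -0.39 for mipafox (SE 0.16, 1.31-fold, unadjusted p = 0.037, adjusted p = 0.687). Both comparisons share the same control arrays. With slide as a block the values were -0.20 and -0.25. Mipafox A, on the slide of the controls, differed from their mean by -0.25. Without control B, the highest array, the fold changes were -0.30 and -0.29. An unadjusted p under 0.05 was kept in 4 of the 9 fits without 1 array for paraoxon and in 5 of 9 for mipafox. For paraoxon these were the fits without control A and without each mipafox array. For mipafox they were those without control A, paraoxon B, paraoxon C, mipafox A or mipafox B. A fit without an array of the other compound leaves the fold change as it was and moves only the estimate of spread.

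The other transport genes had smaller differences. NPC1 and NPC2, which release cholesterol from late endosomes and lysosomes, differed by 0.10 and 0.09 for paraoxon and by 0.11 and 0.06 for mipafox (SE 0.16 and 0.15), and with slide as a block by -0.34 and 0.24 for paraoxon and by -0.18 and 0.16 for mipafox. SCARB1, the receptor for high-density lipoprotein, differed by 0.02 and 0.12 (SE 0.20), and with slide as a block by 0.65 and 0.54 (unadjusted p = 0.041 and 0.032 in limma). Its mipafox arrays gave 4.32, 3.91 and 3.47, with mipafox A above and mipafox C below every other array.

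Among the genes of fatty acid and lipid supply, ACLY, which makes cytosolic acetyl-CoA from citrate, was lower on all 3 paraoxon arrays (0.99, 1.03 and 0.80) than in control (1.18, 1.12 and 1.20), a log2 fold change of -0.23 (SE 0.14, adjusted p = 0.550 in limma; -0.50 with slide as a block). With mipafox it gave 0.88, 1.04 and 1.27, which overlaps the controls. ACACA, which commits acetyl-CoA to fatty acids, was higher on all 3 paraoxon arrays at its brightest probe (3.42, 3.53 and 3.46 against 3.40, 3.40 and 3.27; fold change 0.12). With slide as a block that fold change was 0.62 (unadjusted p = 0.035 in limma). Its dimmer probe was lower on all 3, at a fold change of -0.11 (0.03 with slide as a block), so the probes of this gene disagree in sign. LPIN1, a phosphatidate phosphatase, differed by 0.07 and -0.10 (SE 0.17). Its dimmer probe, well above background on 6 arrays, differed by -0.80 and -0.37 (SE 0.52), so its probes disagree in sign for paraoxon.

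The array-to-array spread was the largest feature of several enzymes. Within treatments, the median SD over the 37 probes was 0.188, below the 0.250 of all probes tested, and 14 of the 30 genes lay in the least variable 25% of probes. Most of these genes were brighter than most probes, and this comparison was not matched for brightness. HMGCS1, IDI1 and SC4MOL had SDs of 0.470, 0.414 and 0.473. All were highest on paraoxon B among the paraoxon arrays and on mipafox C among the mipafox arrays, and lowest on mipafox A. From mipafox A to mipafox C the difference was 1.25 for HMGCS1, 0.88 for IDI1 and 1.23 for SC4MOL. It was also positive for SC5DL (0.64) and NPC1 (0.53), whereas MVK (-0.89), SCARB1 (-0.84), NSDHL (-0.81), ACACA (-0.68) and EBP (-0.68) went the other way. SQLE, LSS, HSD17B7 and DHCR7 differed by -0.02, -0.07, -0.05 and -0.06. Genes of cholesterol synthesis thus lay on both sides and in the middle, and the cause of this was not tested. In all, 5 of the 30 genes were above mipafox A by more than 0.5 on mipafox C and 5 were below it by more than 0.5, where 15.2% and 25.9% of all probes were.

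**Figure D3:**
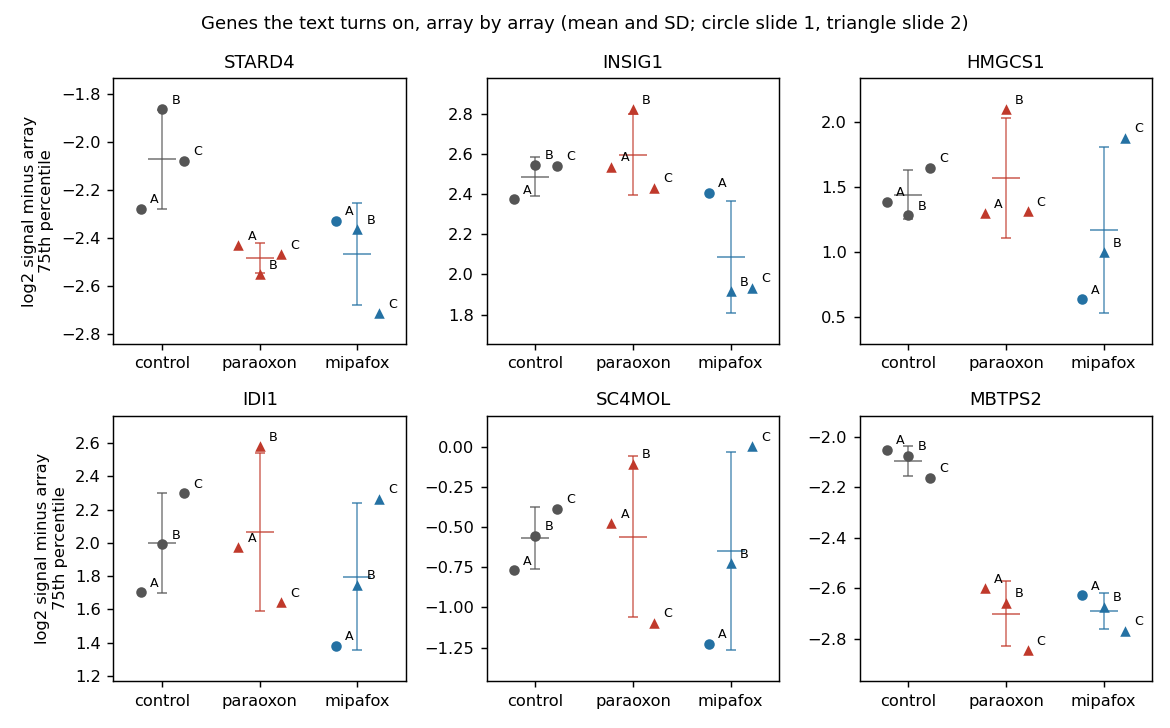
Log2 signal minus the array's 75th percentile for 6 genes on each array, by treatment, with the letter of the array; horizontal bars are means and vertical bars SDs of 3 arrays, circles are slide 1 and triangles slide 2. STARD4 and MBTPS2 are lower on all 6 treated arrays than on the 3 controls, INSIG1 is low on mipafox B and C, and HMGCS1, IDI1 and SC4MOL are high on paraoxon B and mipafox C and low on mipafox A.

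The base composition of the probes moved with this spread. A probe is a DNA strand of 60 bases, and the content of G and C ran from 35.0% to 60.0% over the 37 probes, with a median of 41.7% (45.0% over all probes tested). Over the 37 probes the correlation of the mipafox C minus A difference with the G and C content was -0.47, and over all 29134 it was -0.22. These points share their arrays, and probes of 1 gene share their RNA. The deviation of control A from its group mean correlated with G and C content at 0.61 over the 37 probes and 0.45 over all, that of control B at -0.48 and -0.34, and that of control C at -0.51 and -0.31. The probes with the largest positive difference from mipafox A to C are poor in G and C, although INSIG1 (35.0%) and NSDHL (40.0%) are poor as well and went the other way. The paraoxon fold change correlated with G and C content at -0.39 over the 37 probes and -0.07 over all. For the mipafox fold change the values were -0.03 and -0.02. The part of base composition in these values was not tested. To show the contrast, the first 30 bases of 4 probes follow, 5′ to 3′ with G and C in capitals; the coordinates, those of the array files on hg19, and the percentages are of the whole probe. In the bases shown, 11 of 30 are G or C for HMGCS1, 11 for SC4MOL, 12 for INSIG1 and 23 for MVK, whose probe is richer there than over its whole length.

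HMGCS1, chr5:43290117-43290176, 38.3% G and C over 60 bases: ataaGGtatGaCCCaaGtttttaCCtaGtC

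SC4MOL, chr4:166263190-166263249, 35.0% G and C over 60 bases: GtCttCtGGCtaCtaaGtGataaaaaGaaC

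INSIG1, chr7:155101843-155101902, 35.0% G and C over 60 bases: CtaCCaGatttGaaCatCtaGtGaGGttCa

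MVK, chr12:110034941-110035000, 55.0% G and C over 60 bases: aGGGGCtGtCCCGGaGGCGGtGGGCCtGGt

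Genes next to the pathway were read from a further list of 29, all on the array and 26 of them tested. Of the 26, 0 were higher at an unadjusted p under 0.05 with either compound, 2 were lower with paraoxon and 1 was lower with mipafox. Over all probes 7.31% were higher and 6.02% lower with paraoxon, and 2.96% and 4.0% with mipafox, so these counts lay near or under the background. The median log2 fold change of the 26 was -0.04 and 0.06. NR1H2, which encodes the oxysterol receptor LXR beta, differed by -0.69 for paraoxon (SE 0.24, adjusted p = 0.249 in limma; -0.36 with slide as a block) and by -0.26 for mipafox. The 7 tested genes of the mevalonate branches (prenylation, dolichol and ubiquinone) and the 6 other SREBP targets had none at an unadjusted p under 0.05.

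MBTPS2, the site-2 protease that makes the final cut releasing SREBPs from the Golgi membrane, had the smallest p among the 26. It gave -2.05, -2.08 and -2.16 in control, -2.60, -2.66 and -2.85 with paraoxon and -2.63, -2.67 and -2.77 with mipafox. Every treated array was lower than every control array, mipafox A on the control slide included, where the difference from the control mean was -0.53. Of all probes, 11.1% were lower without overlap with paraoxon and 6.46% with mipafox. The log2 fold change was -0.60 for paraoxon (SE 0.13, adjusted p = 0.095 in limma) and -0.59 for mipafox (SE 0.13, adjusted p = 0.340), neither of them a call, and the comparisons share the control arrays. With slide as a block the values were -0.51 (unadjusted p = 0.050) and -0.53 (unadjusted p = 0.016). Over all 21 alternatives it ran from -0.65 to -0.32 for paraoxon and from -0.63 to -0.36 for mipafox, and its adjusted p from 0.0058 with array weights to 0.613 and from 0.0021 with array weights to 1.0. With array weights, 12.2% of all probes had an adjusted p under 0.05 for paraoxon and 31.9% for mipafox. MBTPS1, the site-1 protease that cuts first, differed by 0.05 and 0.12 (SE 0.13), and with slide as a block by -0.18 and -0.03.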

How the data were processed

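Labelled RNA of NT2 cells was hybridized to 9 arrays, 3 a treatment, on 2 slides. The authors deposited Feature Extraction 10.5.1.1 output (version from the submitters' processing notes) with spot intensity on a linear scale, already background-corrected in the processed signal, and a table of processed log2 values for 29527 probes. That table's columns had medians from 8.35 to 8.41 and correlated with the scanner log2 values at 0.980 to 0.985. Its log2 scale and direction follow from this, while its centring is unknown. The paper names the Agi4x44PreProcess package and its manual for normalization and filtering, but not which of the manual's background options was used. Its values were an alternative.

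The processed signal was taken to log2, the 75th percentile over non-control spots of each array (802 to 1590) was subtracted, spots for control or with an outlier mark were dropped, and a probe took the mean of its spots. On an array 65.7% to 73.6% of probes were well above background, and precision is limited by how many arrays there are. A probe was tested when, on each array of 1 or more treatments, at least 0.5 of its spots were well above background. The fit was limma 3.58.1 in R 4.3.3 over all 9 arrays, with 1 mean per treatment and Benjamini-Hochberg adjustment, and the code was tested on simulated data. Full statistics went to genes at an unadjusted p under 0.05 and to INSIG1, HMGCS1, SQLE, IDI1, SREBF1 and SREBF2; SC4MOL, EBP, ACLY, ACACA, SCAP, MVD and the probes set out for their spread were named after their values were seen. The members and lists were chosen with earlier results of these data known. Alternatives were 12 changes of normalization, filter, block, variance model or probe choice and 9 fits without 1 array. The labels do not say whether the letters pair arrays across treatments, and the main fit did not pair them. Figures were drawn with matplotlib 3.10.9.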

Additional observations from a re-analysis of the deposited data

How the results depend on the processing

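No gene of the pathway was called under any of the 21 alternatives, in any of the 3 comparisons. Over all probes the count called for paraoxon rose from 0 to 276 with the 2 treatments alone and to 627 with array weights, and for mipafox to 1024 with array weights, with 0 of the 30 genes among them. The number of the 30 genes at an unadjusted p under 0.05, 1 for paraoxon where 13.3% of all probes passed, was 2 with quantile normalization (14.8% of all probes), with normexp background correction (8.96%) and with the 2 treatments alone (15.6%), 3 with slide as a block (8.02%) and with array weights (28.5%), 8 with the authors' values (16.3%) and 0 with the replicate block (12.5%). For mipafox it was 2 (6.96% of all probes), and became 1 with normexp (4.42%) and with slide as a block (5.48%), 0 without a filter on dim probes (6.42%), with the 2 treatments alone (6.95%) and with the replicate block (6.53%), and 11 with array weights (36.7% of the genes and 45.0% of all probes). The array weights, from 0.27 (mipafox C) to 5.40 (mipafox B), gave 1 gene (STARD4; 3.33%, beside 12.2% of all probes) an adjusted p under 0.05 for paraoxon and 9 of the 30 for mipafox (beside 31.9% of all probes), all within the fold limit. Without 1 array the counts ran from 0 to 2 for paraoxon and 0 to 4 for mipafox, the 4 without mipafox A. The 8 genes with the authors' values for paraoxon (26.7% of the genes) were ACACA, ACLY, EBP, INSIG1, NPC1, NPC2, SQLE and STARD4. None of them had an adjusted p under 0.05. Among them SQLE differed by 0.31, INSIG1 by 0.28 and STARD4 by -0.46. With the authors' values the median log2 fold change of the 30 genes was 0.0657 for paraoxon (0.0213 over all probes) and 0.0155 for mipafox (0.0195 over all probes). With slide as a block it was 0.0781 for paraoxon (0.1021 over all probes) and 0.0283 for mipafox (0.0614 over all probes). Without 1 array it ran from -0.0399 to 0.0226 for paraoxon and from -0.0582 to -0.016 for mipafox. STARD4 and INSIG1 (mipafox) kept their sign in all 21. Several of these could not turn it, since they leave the fold change of a gene with a single probe as it was. They are the filter changes, the replicate block, the 2 treatments alone and the trend and robust variance model. The mean over probes and the fits without an array of the other compound leave it unchanged too. Between treatments, deviations from the treatment mean correlated at -0.60 to 0.57 for arrays of the same letter and at -0.59 to 0.66 for different letters. Neither the labels nor these values tell whether the letters pair cultures. The cause of these shifts was not tested. With 3 arrays a treatment, the half-width of a gene's 95% interval ran from 0.27 to 0.75.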
